A study of Mus musculus with 5 samples.

Results

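The genes of SR proteins, heterogeneous nuclear ribonucleoproteins (hnRNPs) and splicing regulators were followed in haematopoietic stem cells (HSCs) of mouse bone marrow. Members were rows of the count table whose symbol is Srsf with a number or begins with Hnrnp and a lower case letter, together with Sf3a1, Sf3b1, Sf3b2, Sf3b3, U2af1, U2af2, Zrsr2, Prpf8, Ptbp1, Tra2a, Tra2b, Rbfox2, Celf1 and Mbnl1. A sum of at least 100 counts over the 5 libraries was required, and 45 of the 35976 rows of the table qualified, with 0 of the rows so named left out for a low sum. Each library came from 30 cells of a C57BL/6 mouse, sorted as Lineage- CD34- cells that carry Sca-1, c-kit and CD150, then amplified by Smart-seq2, which copies full-length cDNA without molecule identifiers. The labels give 2 WT and 3 Ythdf3-/- libraries, while the series text counts 2 knockout and 3 wild-type samples, each from a different mouse; neither the allele nor the age of the mice is described. The YTHDF3 protein binds mRNA that carries N6-methyladenosine (m6A) in the cytoplasm, and the design sets stem cells labelled as lacking it beside those labelled WT.

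Splicing removes introns through the spliceosome, whose U2 particle marks the branch point and whose U5 particle sits at the catalytic centre. SR proteins bind exons through RNA recognition motifs and recruit the spliceosome through their arginine- and serine-rich tails, whereas many hnRNPs and PTBP1 repress exons, so the balance of both shapes alternative splicing. Many of these genes limit their own output by including exons that send the mRNA to nonsense-mediated decay. In the blood system SF3B1, SRSF2, U2AF1 and ZRSR2 are recurrently mutated in myelodysplastic syndromes, and SRSF3, HNRNPA2B1 and HNRNPC have been linked to m6A in the nucleus.

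Library facts bear on every value below. Totals ran from 6357862 to 16650134 counts, so that 1 count was worth between 0.0601 and 0.157 CPM, the count scaled to a common library total. Ythdf3 itself went against the labels, at 20 and 29 counts under the label WT and at 2, 339 and 366 counts under the label Ythdf3-/- (replicates 1, 2 and 3), so a direction given here refers to the labels alone. Of 12 HSC identity genes, 11 or 12 were above 3 counts in each library. Mitosis genes (12 listed) summed to 717.8 CPM in the library labelled WT 2 and to between 33.8 and 182.5 CPM in the others. The erythroid list (12) summed to 37700 CPM in the library labelled Ythdf3-/- 1, most of it globin (Hba-a1 alone 18520 CPM). Elsewhere it summed to between 1973 and 3211 CPM, mostly Car2 (1743 to 2596 CPM). Gata1 had 1061 counts in the library labelled WT 2 and at most 6 in any other. B lineage genes (10) summed to 559.7 and 1394 CPM in the libraries labelled WT 1 and Ythdf3-/- 1 and to between 66.7 and 219.7 CPM in the rest. Monocyte and macrophage genes (10) ranged from 459.8 and 463.6 CPM under the WT label to between 736.1 and 1095 CPM under the Ythdf3-/- label, mostly Lyz2, with Ccr2 at 0 in all 5. T and NK genes (6) summed to between 2.28 and 93.1 CPM, with Cd3d and Cd3g at 0 in all 5 libraries. Neutrophil genes (10) summed to between 321.7 and 802.7 CPM, mostly Prtn3 (305.2 to 652.2 CPM). Elane, Mpo and Ctsg had at most 1 count outside the library labelled Ythdf3-/- 3. Megakaryocyte genes (6) summed to between 154.6 and 287.0 CPM. The part of any of these lists in the results was not tested. Values per library are given in the order of the replicates, with those labelled WT first. In such pooled cells, fewer cells of a type and less RNA per cell cannot be told apart.

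Sequences of 2 kinds are shown. The first is the word GGACT, the commonest form of the m6A consensus, in the longest protein-coding GENCODE transcript of each member, since the study turns on an m6A reader. 1 word each of the 2 densest carriers and of Srsf7 is printed in capitals with 10 bases on either side. Each printed word is counted as coding, with the stop codon included. The word of Srsf7 runs into the stop codon. The flanks after the words of Srsf7 and U2af2 reach into the untranslated region. Srsf7 was the second most abundant member per kb of annotated exon.
U2af2, mRNA position 1549: accaccgtcgGGACTtctggtagag
Srsf9, mRNA position 484: tcttgtttcaGGACTtcctccatca
Srsf7, mRNA position 974: cagaaagaatGGACTgaagttctca
U2af2 had 2.75 such words per kb of mRNA, Srsf9 2.58 and Srsf7 1.25. The median over the 45 members was 0.58 per kb, against 1.04 over 9683 protein-coding genes tested, and 5 members (Hnrnpa2b1, Hnrnpab, Srsf5, U2af1 and Zrsr2) held none. Of all words in members, 65 lay in 3′ untranslated regions, 55 in coding sequence and 12 in 5′ untranslated regions. Hnrnpr, with an mRNA of 21452 bases, alone held 18 words, nearly all in its 3′ untranslated region. Methylation was not measured, so a word is a match of letters only.

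The second kind is the promoter of the steadiest and of the most uneven member, among those above 3 counts in every library. Each window runs from 250 to 11 bases before the RefSeq start (GRCm38.p6, minus strand), with the word GGGCGG in capitals on whichever strand it lies, a word that the factor SP1 is known to bind.
Sf3b1, chr1:55027489-55027728: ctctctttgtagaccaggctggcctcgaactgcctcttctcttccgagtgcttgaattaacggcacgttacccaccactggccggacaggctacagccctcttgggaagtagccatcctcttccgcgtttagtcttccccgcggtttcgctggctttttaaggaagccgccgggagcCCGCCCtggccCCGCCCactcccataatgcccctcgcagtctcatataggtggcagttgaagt
Hnrnpd, chr5:99978949-99979188: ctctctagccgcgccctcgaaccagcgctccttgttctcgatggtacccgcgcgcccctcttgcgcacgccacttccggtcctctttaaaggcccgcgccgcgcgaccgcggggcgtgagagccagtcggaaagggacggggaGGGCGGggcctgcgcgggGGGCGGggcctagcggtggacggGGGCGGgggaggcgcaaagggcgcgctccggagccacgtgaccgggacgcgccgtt
Sf3b1, whose highest library exceeded its lowest by 1.30-fold, and Hnrnpd, where that ratio was 142.3, both held it. Neither window held the word CCAAT or, of TATA boxes, the word TATAAA, on either strand. In the same 240 bases on both strands, over 41 members with a listed promoter, 73.2% held GGGCGG and 53.7% CCAAT, against 31.5% and 33.7% of 27025 promoters of all genes, while TATAAA was found in 12.2% and 12.7%. That background was not limited to genes tested here. The median ratio of observed to expected CpG was 0.93 for members and 0.38 for all promoters, so members' windows were also richer in CpG. The window of Hnrnpd overlaps an exon of the neighbouring 4930524J08Rik.

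No member passed the test between the labels. Of the 45 genes 44 passed the filter on low counts and 0 were called by edgeR's quasi-likelihood test at an adjusted p of 0.05, where the background was 0% of 11146 genes tested. At an unadjusted p of 0.05 the members gave 0 against 4.85% of all genes, DESeq2 called 0 against a background of 4.59%, and limma voom called 0 against 0%. At an unadjusted p of 0.05, DESeq2 gave 1 of 45 members (Srsf12, 2.22%) against 11.8% of all genes, and voom 2 of 44 (Hnrnpll and Hnrnpul2, 4.55%) against 6.51%, so neither share was above the background. The smallest edgeR adjusted p was 0.983, for Hnrnpu. The fitted level was lower under the Ythdf3-/- label for 30 members and higher for 14, with a median log2 fold change of -0.32, where 52.2% of all genes tested were lower and their median was -0.06. For 8 members the libraries of the labels did not overlap, 18.2% of those tested against 20.7% of all genes: Srsf3, Hnrnpa0, Hnrnpul1, Hnrnpul2 and Ptbp1 were lower (background 11%) and Hnrnpa3, Hnrnph2 and Zrsr2 higher (background 9.74%). A share this close to the background is not a result about the members. The SEs of the members show what could be seen: 0.28 for Sf3b1 and Srsf2, the smallest, and 2.66 for Hnrnpll, the largest, on the log2 scale.

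**Figure D1:**
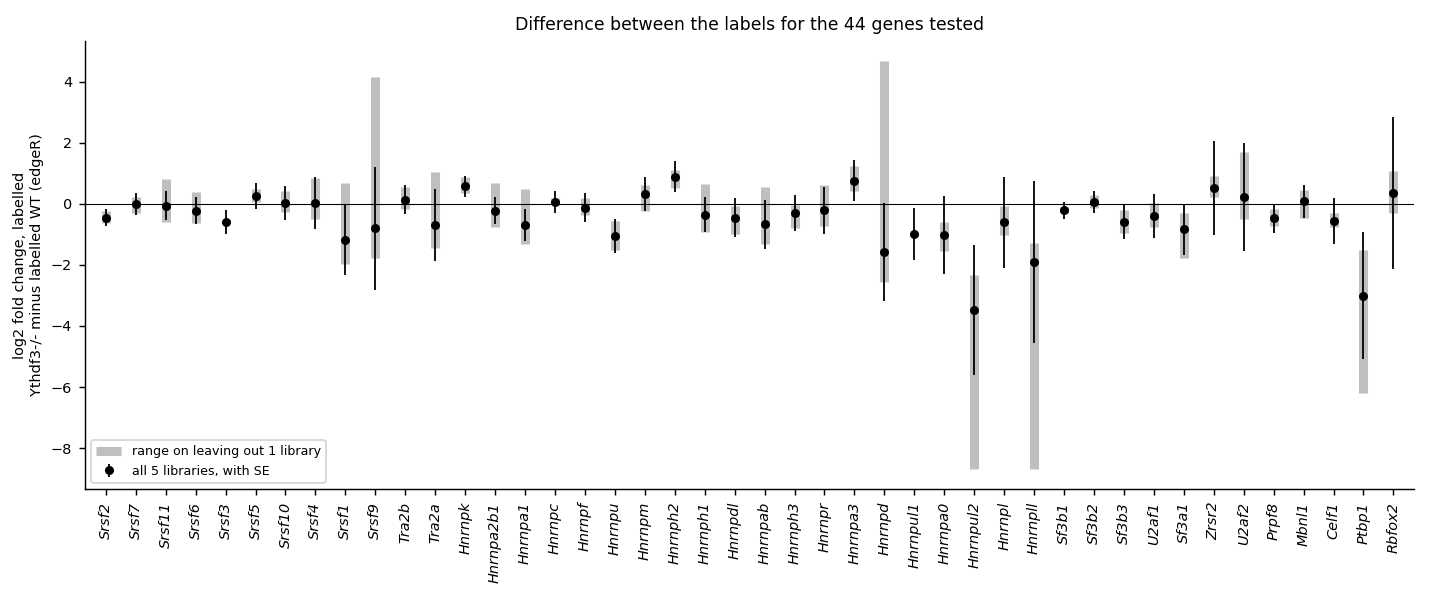
Log2 fold change (labelled Ythdf3-/- minus labelled WT, edgeR, vertical axis) of the 44 genes tested, ordered by role, with its SE (black) and its range over the 5 fits that each leave out 1 library (grey). Abundant genes such as Sf3b1 (-0.22) and Srsf2 (-0.46) sit near 0 with short bars, while Hnrnpul2 (-3.47), Hnrnpll, Hnrnpd and Ptbp1 have bars that span several log2 units.

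As a group the members took nearly the same part of each library. Their share of counts was 0.923% and 1.05% under the WT label, replicates 1 and 2, against 0.910%, 0.937% and 0.913% under the Ythdf3-/- label (95% Wilson intervals, which cover counting error only, 0.919 to 0.928, 1.04 to 1.05, 0.903 to 0.918, 0.931 to 0.943 and 0.906 to 0.920). The mean was 0.985 ± 0.0873% (SD, n = 2) under the WT label and 0.920 ± 0.0146% (SD, n = 3) under the Ythdf3-/- label, and without the library labelled WT 2 the difference of -0.0651 percentage points was -0.00331. The SR proteins took 0.310% and 0.309% under the WT label, against 0.249%, 0.304% and 0.293% under the Ythdf3-/- label, so both WT libraries lay above, with the library labelled Ythdf3-/- 1 the lowest. The gap was narrow and was not tested. Wilson intervals overlapped between the libraries labelled WT 2 (0.305 to 0.313) and Ythdf3-/- 2 (0.300 to 0.307). The hnRNPs took between 0.357% and 0.480%, both ends of that range being libraries labelled WT. Few members were near 0 in a library: 3 of 44 (6.82%; Hnrnpll, Hnrnpul2 and Rbfox2) had 3 counts or fewer in some library, against 37.8% of all genes tested. Their median level was 150.3 CPM, against 38.3 CPM over all genes. Among genes with a mean of at least 100 CPM the median ratio of highest to lowest library was 2.43 for 27 members and 2.90 for 2348 genes.

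**Figure D2:**
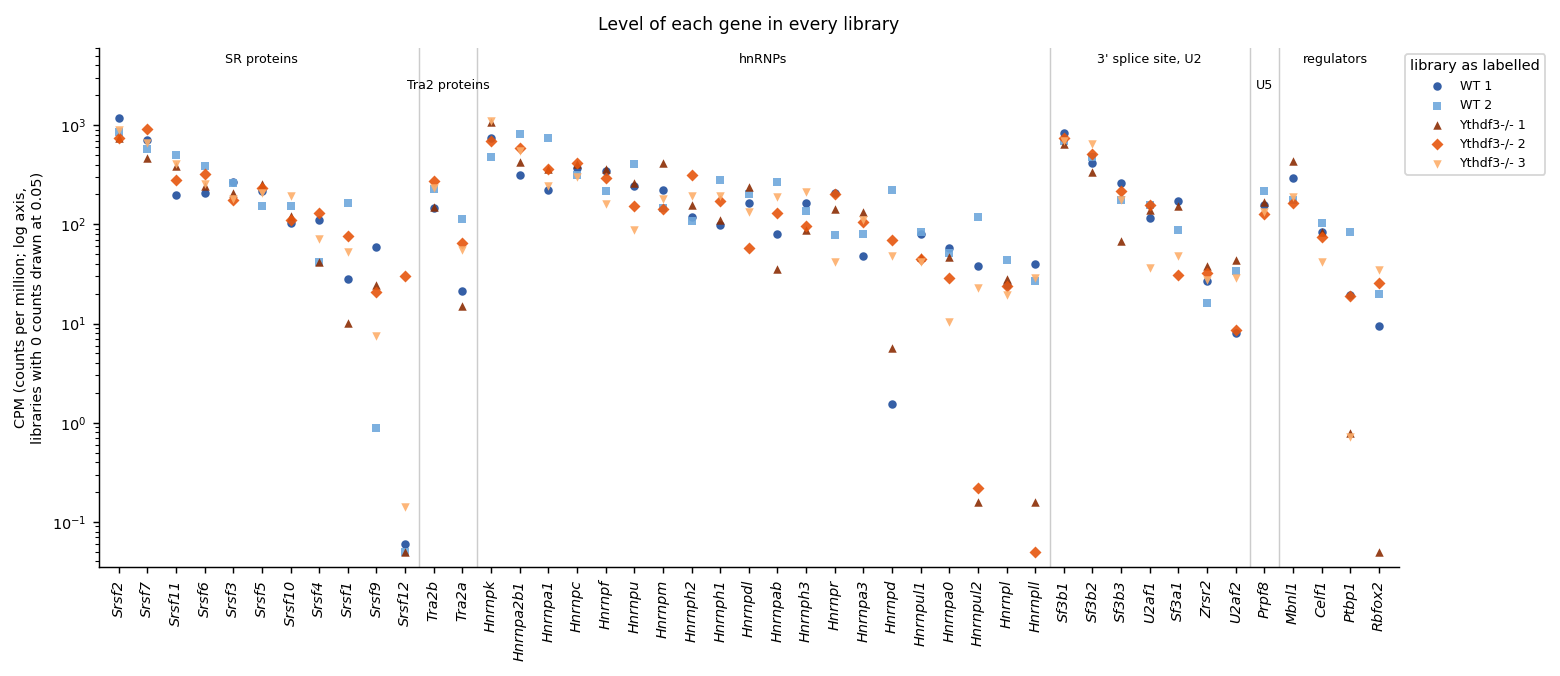
Level of each of the 45 genes (CPM, log axis; libraries with 0 counts are drawn at the bottom) in the 5 libraries, ordered by role and mean level. The points of Srsf2, Hnrnpc and Sf3b1 lie close together, whereas Hnrnpd runs from 1.56 to 222.2 CPM and Srsf12 was above 3 counts in the library labelled Ythdf3-/- 2 alone.

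Among the 11 SR protein genes Srsf2 was the most abundant. Srsf2 (chromosome 11, 116849901 to 116853094 in GRCm38), whose product binds exonic enhancers, stood at 1193 and 861.7 CPM in the libraries labelled WT and 741.1, 750.2 and 891.2 CPM in those labelled Ythdf3-/-. The groups overlapped through the library labelled Ythdf3-/- 3 (log2 fold change -0.46, SE 0.28, edgeR adjusted p = 0.9998). Per length of annotated exons, Srsf2 averaged 300.0 CPM per kb and Srsf7 186.9, followed by Hnrnpk at 126.0, Hnrnpa1 at 122.5 and Hnrnpf at 90.3. The order depends on the length used, since annotated exons include transcripts marked for decay or with retained introns. For Hnrnpa2b1 they span 6584 bp, against 1728 for its longest coding mRNA, and for Srsf7 3550 against 2403. It is also uncertain where sequence is shared. Of the 50-base words, 67.3% for Hnrnpf, 46.4% for Hnrnpa1 and 37.8% for Hnrnpk occur in other genes. Of the Srsf2 mRNA, 35.2% of 50-base words also occur in the overlapping genes Mettl23 and Mfsd11, so its level is uncertain, as Smart-seq2 keeps no strand. Srsf7 (chromosome 17, 80200080 to 80207307), a factor of splicing and mRNA export, stood at 716.4 and 569.8 CPM under the WT label, against 462.9, 904.3 and 664.6 CPM under the Ythdf3-/- label, so that the highest and the lowest library carried the same label.

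Srsf3 (chromosome 17, 29032628 to 29043373), the smallest SR protein and a partner of the nuclear m6A reader YTHDC1, stood at 265.0 and 260.1 CPM under the WT label. In the libraries labelled Ythdf3-/- it stood at 205.4, 174.4 and 180.1 CPM, all below both WT libraries. The log2 fold change was -0.58 (SE 0.39, edgeR adjusted p = 0.9998) and ranged only from -0.63 to -0.54 when each library was left out in turn; 31.5% of its 50-base words recur in other genes, first among them Gm12355. Srsf1, the classical SR protein also known as ASF/SF2, was uneven: 28.2 and 165.4 CPM under the WT label, against 10.1, 75.8 and 52.2 CPM under the Ythdf3-/- label. The fitted -1.18 on the log2 scale turned to 0.68 once the library labelled WT 2 was left out. Srsf5, Srsf6, Srsf10 and Srsf11 stayed within 2.51-fold between their highest and lowest libraries, with log2 fold changes between -0.22 and 0.25. Srsf4 ranged from 41.8 to 130.4 CPM, and 65.4% of its words are shared with the overlapping Gm12992.

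The SR genes with the lowest levels, Srsf9 and Srsf12, varied widely between libraries. Whether RNA was lost in the capture from 30 cells was not tested. Srsf9 stood at 58.6 and 0.892 CPM under the WT label, against 24.7, 20.7 and 7.55 CPM under the Ythdf3-/- label, so the labels overlapped completely, and the fitted -0.80 turned to 4.16 on leaving out the library labelled WT 1. Srsf12 reached 272 counts only with replicate 2 labelled Ythdf3-/-, where the other 4 libraries gave 1 count or none, so that 99.3% of its summed CPM came from 1 library, and it did not pass the filter. The SR-like gene Tra2a, whose product binds purine-rich enhancers, stood at 21.3 and 112.0 CPM against 14.9, 64.1 and 54.7 CPM, with the labels overlapping. Its paralogue Tra2b was steadier, at 145.0 and 225.4 CPM under the WT label, against 149.6, 273.7 and 230.5 CPM under the Ythdf3-/- label. Tra2a had its highest value in the library labelled WT 2 and Tra2b in that labelled Ythdf3-/- 2.

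Of the 20 hnRNP genes 15 were fitted lower and 5 higher under the Ythdf3-/- label, with a median log2 fold change of -0.41; 0 passed. Hnrnpu (chromosome 1, 178321108 to 178337797), which encodes a scaffold protein of nuclear RNA and chromatin, stood at 242.2 and 410.2 CPM under the WT label, against 261.6, 152.8 and 88.6 CPM under the Ythdf3-/- label. The library labelled Ythdf3-/- 1 fell between both WT libraries, and the log2 fold change was -1.06 (SE 0.54), or -0.57 if the library labelled WT 2 is omitted. Hnrnpul1, its relative, was even within each label, at 80.8 and 83.7 CPM against 46.6, 44.4 and 41.5 CPM. The 2 labels were clear of each other there, yet the log2 fold change of -0.99 carried an SE of 0.87 (edgeR adjusted p = 0.9998). Hnrnpul2 counts were 632 and 1056 for WT and 1, 2 and 159 for Ythdf3-/- by label, with a log2 fold change of -3.47 (SE 2.13). Hnrnpa0, which binds AU-rich elements, stood at 58.3 and 51.4 CPM against 46.7, 29.0 and 10.4 CPM.

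Higher under the Ythdf3-/- label were Hnrnph2 and Hnrnpa3, without passing. Hnrnph2 (chromosome X, 134601179 to 134607060), whose product binds runs of guanine, stood at 117.4 and 109.1 CPM under the WT label, against 158.4, 315.1 and 191.7 CPM under the Ythdf3-/- label, a log2 fold change of 0.88 (SE 0.51, edgeR adjusted p = 0.9998). Hnrnpa3 stood at 48.2 and 79.7 CPM against 131.8, 106.1 and 109.7 CPM; 28.2% of its words recur among 46 other annotated genes, so its count is uncertain. Hnrnpk (chromosome 13, 58391142 to 58403343), which binds cytidine-rich RNA, stood at 734.9 and 473.3 CPM against 1077, 690.6 and 1097 CPM, and overlapped through the library labelled Ythdf3-/- 2. All 3 kept their sign in each fit that left out 1 library. Without the library labelled WT 1, Hnrnpk, Hnrnpa1 and Hnrnpa2b1 had an unadjusted p under 0.05, 6.67% of members against 7.96% of all genes in that fit. Of the Hnrnpk mRNA, 37.8% of the 50-base words recur in other genes, so its level is uncertain.

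Of the hnRNPs linked to m6A, Hnrnpc (chromosome 14, 52073377 to 52104028) was steady, at 365.6 and 312.4 CPM under the WT label, against 404.9, 415.9 and 297.3 CPM under the Ythdf3-/- label. The labels overlapped, with a fitted log2 fold change of 0.05 (SE 0.36, edgeR adjusted p = 0.9998). Hnrnpa2b1 (chromosome 6, 51460932 to 51469894) stood at 313.7 and 805.5 CPM and at 426.7, 581.7 and 543.1 CPM, so both extremes carried the WT label. Hnrnpa1, a repressor of exon inclusion, had the same form at 223.6 and 738.1 CPM against 362.5, 361.0 and 245.3 CPM. Leaving out the library labelled WT 2 turned the sign of both, from -0.22 to 0.69 for Hnrnpa2b1 and from -0.68 to 0.49 for Hnrnpa1. Of the Hnrnpa1 mRNA 46.4% of the 50-base words occur in 19 other genes, first Gm10052 and Gm7729, against 2.4% for Hnrnpa2b1.

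Hnrnpd, which encodes the AU-rich element binding protein AUF1, was the most uneven member above 3 counts everywhere: 1.56 and 222.2 CPM under the WT label, against 5.66, 68.9 and 47.9 CPM under the Ythdf3-/- label. A log2 fold change of -1.58 turned to 4.67 once the library labelled WT 2 was omitted. Hnrnpll, the regulator of CD45 exon skipping in lymphocytes, was counted 662 and 239 times in libraries labelled WT and 1, 0 and 200 times in those labelled Ythdf3-/-, which overlapped. Its paralogue Hnrnpl was low but present throughout, at 24.3 and 44.2 CPM against 28.3, 24.1 and 19.5 CPM. Hnrnpab, Hnrnpdl, Hnrnpf, Hnrnph1, Hnrnph3, Hnrnpm and Hnrnpr overlapped between the labels, with log2 fold changes between -0.67 and 0.33.

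Of the 7 genes of 3′ splice site recognition and the U2 particle, 4 were fitted lower and 3 higher under the Ythdf3-/- label, and 0 passed. Sf3b1 was the steadiest member, but the median ratio of highest to lowest library in this role was 3.86, against 2.77 over all members. Sf3b1 (chromosome 1, 54985169 to 55027481), which clamps the branch point, stood at 837.2 and 690.2 CPM under the WT label, against 643.5, 750.3 and 696.5 CPM under the Ythdf3-/- label. The labels overlapped, with a log2 fold change of -0.22 (SE 0.28, edgeR adjusted p = 0.9998). Sf3b2, of the same complex, stood at 415.4 and 479.0 CPM against 340.8, 506.5 and 646.0 CPM. Less steady were Sf3b3 and Sf3a1, also of the U2 particle. Sf3b3 stood at 259.3 and 177.1 CPM against 67.2, 218.4 and 175.7 CPM. Sf3a1 stood at 173.9 and 88.2 CPM against 153.4, 31.2 and 48.5 CPM, and its labels overlapped as did those of Sf3b3.

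The U2AF pair and ZRSR2 read the end of the intron. U2af1 (chromosome 17, 31647081 to 31658892), the subunit that contacts the AG, stood at 116.8 and 157.4 CPM under the WT label, against 139.2, 157.0 and 35.9 CPM under the Ythdf3-/- label, where the library labelled Ythdf3-/- 3 alone was low. The log2 fold change of -0.39 went to 0.03 with that library omitted, and 59.4% of its words are shared, first with Gm10232. U2af2, which binds the polypyrimidine tract, was low and mixed at 8.11 and 34.2 CPM against 43.2, 8.59 and 29.1 CPM. Zrsr2 (chromosome X, 163935443 to 163958661), the counterpart of U2AF1 at minor introns, stood at 27.1 and 15.9 CPM under the WT label, against 38.1, 32.3 and 27.5 CPM under the Ythdf3-/- label. The labels were separated only by the gap from 27.1 to 27.5 CPM, for a log2 fold change of 0.52 (SE 1.54). Prpf8 of the U5 particle stood at 157.4 and 215.3 CPM against 169.2, 127.5 and 133.7 CPM, a log2 fold change of -0.47 (SE 0.47). None of the 4 genes mutated in myelodysplastic syndromes passed, and 3 of them overlapped between the labels.

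The 4 regulators split into abundant and sporadic genes. Mbnl1, which acts in the switch from fetal to adult splicing, stood at 295.1 and 174.4 CPM under the WT label, against 430.3, 164.7 and 190.4 CPM under the Ythdf3-/- label. Celf1, its antagonist at many exons, stood at 82.9 and 103.5 CPM against 83.4, 75.1 and 41.6 CPM. Both overlapped between the labels. Ptbp1 (chromosome 10, 79854427 to 79864771), the polypyrimidine tract repressor, was counted 320 and 756 times in libraries labelled WT and 5, 173 and 5 times in those labelled Ythdf3-/-. In CPM the library labelled WT 1 (19.2) and that labelled Ythdf3-/- 2 (19.1) were nearly equal, and the log2 fold change of -3.01 (SE 2.07) ran from -6.21, with the library labelled Ythdf3-/- 2 omitted, to -1.51, with WT 2 omitted. Rbfox2 had 156 and 180 counts against 0, 231 and 245 counts; the 0 allows up to 3 counts, and it was the library labelled Ythdf3-/- 1 alone that lacked it.

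The library labelled WT 2 held the maximum of more members than any other library. In it 17 of 44 members (38.6%) reached their highest CPM, against 22.9% of all genes tested, and so did 47 of 127 other splicing genes (37.0%). Among these members were Hnrnpd, Srsf1, Tra2a, Hnrnpa1, Hnrnpa2b1, Hnrnpab, Hnrnpul2 and Ptbp1. In the library labelled WT 1, 9 members had their highest value, against 19.8% of all genes. The library labelled WT 2 is also the one with the highest sum of mitosis genes and of Gata1, whose part in these levels was not tested. With it left out the members' median log2 fold change was -0.06 and that of all genes 0.22, and 24 members were lower and 21 higher among 45 fitted, with 1 library left under the WT label.

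**Figure D3:**
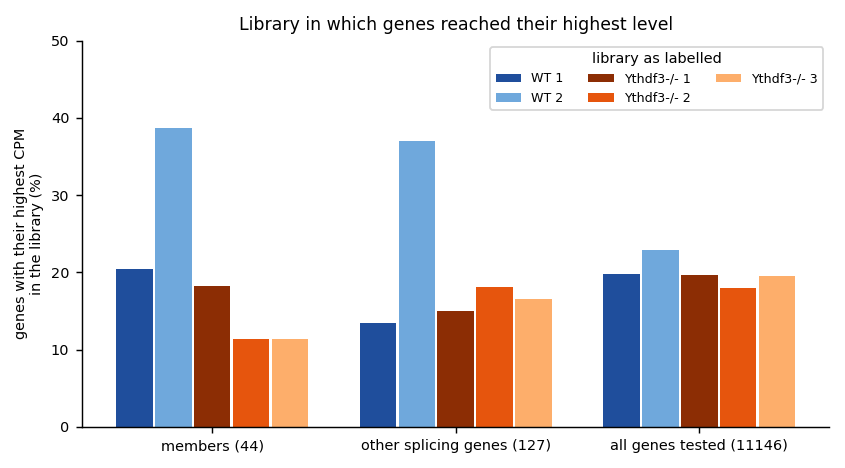
Share of genes (%) whose highest CPM fell in each library, for the 44 members tested, 127 other splicing genes tested and all 11146 genes tested. The library labelled WT 2 holds 38.6% of member maxima and 22.9% of those of all genes.

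Among libraries with more than 3 counts of both genes, the ratio within each of 7 related pairs was highest in the library labelled WT 2. The margin was wide in some pairs and narrow in others. For Hnrnpl to Hnrnpll (3.25 in WT 2) the rule left out the libraries labelled Ythdf3-/- 1 and 2. Hnrnpl far exceeded Hnrnpll in them, at 180 against 1 count and 219 against 0. The numerators Tra2a, Hnrnph1, Hnrnpa1, Hnrnpa2b1, U2af1 and Hnrnpl all had their highest CPM in the library labelled WT 2, so the ratios add no separate evidence. Per kb of exon, Tra2a stood at 0.661 of Tra2b in the library labelled WT 2 and at between 0.133 and 0.316 of it in the others. Hnrnph1 was 1.91 times its X-linked relative Hnrnph2 there and between 0.406 and 0.762 times elsewhere. Which gene exceeded the other depends on the length used. Their annotated exons span 5842 and 4369 bp, but their longest coding mRNAs 2427 and 3988 bases. In plain CPM Hnrnph1 also exceeded Hnrnph2 in the library labelled Ythdf3-/- 3 (195.2 against 191.7). The length used does not alter the order of the libraries within a pair. The ratio of Hnrnpa1 to Hnrnpa3 was 7.94 and 15.8 under the WT label, against 4.71, 5.82 and 3.82 under the Ythdf3-/- label, and that of Hnrnpa2b1 to Hnrnpa3 was 5.34 and 8.28 against 2.65, 4.49 and 4.06. For both ratios the labels did not overlap, but they share Hnrnpa3. Srsf3 was between 0.0867 and 0.205 of Srsf7 in all 5 libraries, with the library labelled Ythdf3-/- 1 (0.199) close to that labelled WT 2 (0.205). The ratio of U2af1 to Zrsr2 ran from 3.62 in the library labelled Ythdf3-/- 3 to 27.4 in that labelled WT 2. Srsf8 is not a row of the table.

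**Figure D4:**
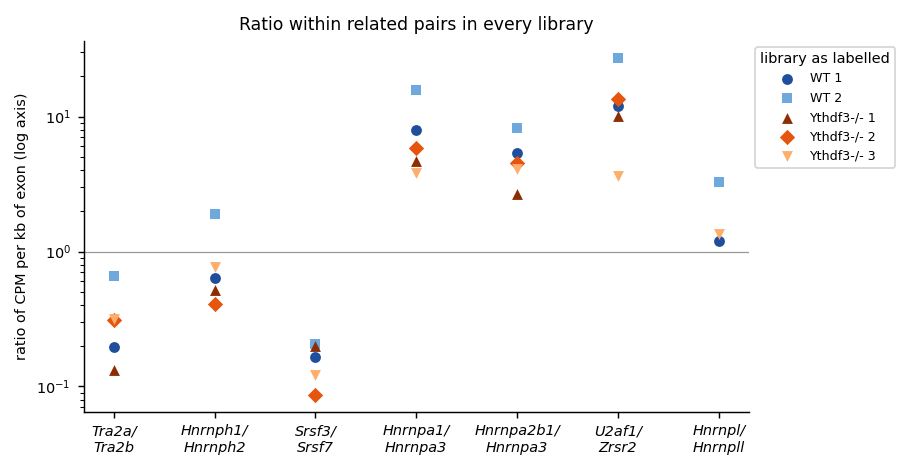
Ratio of CPM per kb of exon within 7 pairs of related genes in each library (log axis; the line marks equality). A library with 3 counts or fewer of either gene is left out. The square of the library labelled WT 2 is the highest of the points drawn in each pair, from 0.205 for Srsf3 to Srsf7 up to 27.4 for U2af1 to Zrsr2.

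Members shared features of annotation that the choice by name did not use. A transcript marked for nonsense-mediated decay was annotated in GENCODE for 25 of 45 members (55.6%), 9 of 11 SR genes and 10 of 20 hnRNP genes, against 31.1% of 9683 protein-coding genes tested. A retained-intron transcript was annotated for 35 members (77.8%), against 63.1%. Counts per gene add all such transcripts, so they do not show which part of a level could be translated. Of the members, 17 shared at least 10% of the 50-base words of their mRNA with another gene, and 14 shared none, among them Sf3b1, Srsf11, Srsf6, Hnrnpu, Prpf8 and Mbnl1.

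The rest of the splicing machinery gave 133 rows from 8 lists, of which 127 were tested, and 0 passed edgeR. Their median level was 103.2 CPM, against 38.3 CPM over all genes. An unadjusted p under 0.05 in edgeR was found for 9 of them (7.09%, against 4.85% of all genes). Among all genes with a mean of at least 100 CPM it was found for 151 of 2348. Of the other splicing genes, the fitted level was lower under the Ythdf3-/- label for 74 (58.3%, against 52.2% of all genes) and higher for 53, with a median log2 fold change of -0.18. Without the library labelled WT 2, 59 of 128 (46.1%) were lower, against 44.5% of all genes. The labels did not overlap for 35 of them, 27.6% against 20.7% of all genes and 23.8% of genes with a mean of at least 100 CPM. Of the U1 particle and Sm core, 10 of 13 were lower (median -0.70): Snrpg, an Sm ring protein, stood at 172.4 and 312.4 CPM under the WT label, against 96.1, 95.2 and 103.9 CPM under the Ythdf3-/- label, and Snrpf at 190.0 and 355.8 CPM against 102.6, 139.3 and 159.9 CPM. In this list 9 of 13 genes (69.2%) were highest in the library labelled WT 2. With that library omitted the list's median was -0.12 and that of all genes 0.22. In that fit 9 of 13 in the list (69.2%) were still lower, against 44.5% of all genes. The log2 fold changes went from -1.40 to -0.84 for Snrpg and from -1.13 to -0.54 for Snrpf. Of the U4/U6.U5 proteins, 13 of 18 were lower, among them the U6-binding Lsm4 at 509.4 and 623.0 CPM against 266.9, 366.6 and 223.8 CPM, and Lsm7, whose log2 fold change of -1.08 was -0.59 with WT 2 omitted. Of the other U2 and branch point proteins 8 of 14 were lower, and U2surp had a log2 fold change of -1.25. With WT 2 omitted, 6 of 14 in that list were lower, and 10 of 18 U4/U6.U5 proteins. Puf60, which helps U2AF at weak sites, stood at 313.6 and 140.9 CPM against 647.4, 286.2 and 549.1 CPM, so the labels overlapped. Its log2 fold change of 1.04 was 1.67 with WT 1 omitted and 0.62 with WT 2 omitted.

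Of the Prp19 complex and step helicases 10 of 16 were fitted higher (median 0.21). Without the library labelled WT 2, 9 of 16 were lower (56.2%, median -0.14), against 44.5% of all genes. Dhx8, which releases spliced mRNA, stood at 12.7 and 4.68 CPM under the WT label, against 47.5, 93.1 and 168.9 CPM under the Ythdf3-/- label, and Plrg1 at 48.4 and 7.36 CPM against 165.5, 120.0 and 186.6 CPM. Raly, an hnRNP C relative that does not carry the name, stood at 1.98 and 0.557 CPM against 41.8, 48.8 and 81.9 CPM, and Rbm5 at 201.9 and 134.7 CPM against 369.5, 370.1 and 388.5 CPM. These 4 genes were higher in every library labelled Ythdf3-/-, with log2 fold changes of 3.49, 2.43, 5.40 and 1.08 and edgeR adjusted p = 0.964 each. For Plrg1 the log2 fold change rose to 4.28 with WT 1 omitted and fell to 1.665 with WT 2 omitted. DESeq2 called 3 of 127 other splicing genes (2.36%), below the 4.59% of all genes: Dhx8 (adjusted p = 0.00643), Scaf8 (0.0346) and Raly (9.4e-05). Of the SR-related and exon junction proteins 12 of 17 were lower, among them Son (361.9 and 529.7 CPM against 265.7, 276.4 and 295.9 CPM; log2 fold change -0.77, and -0.41 with WT 2 omitted). Of the SR kinases and importins 6 of 10 were lower (Tnpo1, Dyrk1a), of the minor spliceosome 5 of 9 (Zcrb1, Snrnp25), and of the other regulators 14 of 30. With WT 2 omitted, 5 of 10 SR kinases and importins and 6 of 9 minor spliceosome genes were lower. So were 7 of 31 other regulators and 7 of 17 SR-related and exon junction proteins.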

How the data were processed

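The authors deposited 1 table of unnormalized counts, with genes as rows and 5 libraries as columns. The submitters' processing notes name HISAT2 2.2.1, HTSeq 0.12.4 and mm10. Annotation, strand setting and the handling of multiply mapped reads were not given in the sources used here. Libraries were sequenced as paired 150-bp reads, per the labels' protocols, and groups follow the labels. All 35976 rows were used in 1 fit in R 4.3.3 with edgeR 4.0.16 (default expression filter per group, TMM scaling, robust quasi-likelihood test, no covariate, Benjamini-Hochberg adjustment over 11146 genes at 0.05), and only the rows of interest are printed. SEs were derived from the F statistic. CPM were computed from the deposited counts and library totals, and CPM per kb from union exon lengths of GENCODE M21 (GRCm38, which is mm10), which matched all 45 members. Shared 50-base words were counted against all GENCODE transcripts on both strands. Promoters are from RefSeq, GRCm38.p6.

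Members and lists were chosen with earlier results of these data known. Named by rule were the genes mutated in myelodysplasia or linked to m6A, the 3 smallest p in each role, the 5 highest and 5 lowest mean CPM, genes with at least 90% of their CPM in 1 library, related pairs, and the 2 smallest p in each list of other splicing genes. Other members were described after their values were seen. The fit was tested on simulated data. DESeq2 1.42.0, limma 3.58.1, other scalings and filters, and fits without single libraries were alternatives.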

Additional observations from a re-analysis of the deposited data

How the results depend on the processing

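No member was called under any setting tried. Over all genes the edgeR count of 0 became 21 with no filter on low counts and 598 with DESeq2, and 0 to 1 on leaving out 1 library (1 without the library labelled WT 1). DESeq2 also called 3 other splicing genes (Dhx8, Scaf8 and Raly) where edgeR called 0, a share of 2.36% against 4.59% of all genes. The members' median log2 fold change of -0.324 was -0.223 with library sizes alone, -0.189 for genes of at least 1 CPM in every library, -0.248 with DESeq2, -0.213 with voom and -0.159 without the libraries labelled WT 2 and Ythdf3-/- 1. Leaving out 1 library gave -0.414 (Ythdf3-/- 2) to -0.057 (WT 2). The median over all genes moved too: it was -0.063 with all 5 libraries, 0.215 without WT 2 and 0.311 without WT 1. Without WT 1 the members' median was -0.329, so in each of these fits it lay below that of all genes. Members whose labels did not overlap numbered 10 to 26 with 1 library fewer and 37 without both, since fewer libraries overlap less by construction. The difference in share of counts, -0.0651 percentage points, ran from -0.127 (without WT 1) to -0.00331 (without WT 2) and was 0.00153 without both.

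Of 44 members, 23 changed sign on leaving out some library; 16 stayed lower and 5 higher. Of the 23, Srsf4, Srsf6, Srsf10, Srsf11, Hnrnpab, Hnrnpd, Hnrnpf, Hnrnpm, Hnrnpr and Sf3b2 are not listed one by one. For the other 13 the ranges were -1.97 to 0.68 for Srsf1, -0.287 to 0.229 for Srsf7, -1.77 to 4.16 for Srsf9, -1.45 to 1.04 for Tra2a, -0.175 to 0.556 for Tra2b, -1.32 to 0.494 for Hnrnpa1, -0.768 to 0.689 for Hnrnpa2b1, -0.043 to 0.204 for Hnrnpc, -0.939 to 0.646 for Hnrnph1, -0.744 to 0.032 for U2af1, -0.482 to 1.69 for U2af2, -0.458 to 0.454 for Mbnl1, and -0.287 to 1.08 for Rbfox2. Tnpo1, which is no member, ranged from -3.04 to 0.478. Without both libraries, Srsf1 was at 1.12, Srsf7 0.071, Tra2a 1.42, Hnrnpa1 0.379, Hnrnpa2b1 0.783, Hnrnpc -0.096, Hnrnph1 0.824, Mbnl1 -0.792 and Tnpo1 0.711. Srsf7, at -0.01, was at 0.02 with RLE, 0.025 with upper quartile factors and with DESeq2, 0.075 with library sizes alone and 0.026 with the stricter filter. With voom, Srsf9 was at 0.343, Tra2a 0.135, Hnrnpa2b1 0.162, Hnrnph1 0.04, Mbnl1 -0.17 and Rbfox2 -1.53. The cause of these sign changes was not tested.

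Deviations of same-numbered libraries from their label means correlated at -0.004 and 0.009 over 11146 genes. With 2 WT libraries these deviations mirror each other, so the values cannot decide whether same-numbered libraries share a batch. With the replicate number as a block, which drops the library labelled Ythdf3-/- 3 from the contrast, 0 genes were called, the members' median was -0.208, Srsf9 was at 1.52, U2af1 0.047 and Rbfox2 -3.32. The SEs of Srsf9 (2.02), Ptbp1 (2.07), Hnrnpul2 (2.13), Rbfox2 (2.48) and Hnrnpll (2.66) on the log2 scale limit what could be seen for these genes.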
